A study of Mus musculus with 6 samples.

Results

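The 10 genes described here are regulators of entry into and exit from mitosis: the kinase genes Plk1, Aurka and Wee1, the AURKA activator gene Tpx2, the phosphatase genes Cdc25a, Cdc25b and Cdc25c, and the genes Cdc20, Fzr1 and Ube2c of the anaphase-promoting complex (APC/C) pathway. They were chosen by symbol and function from the 22579 genes of the count table. The rule uses no measured value, but the set was proposed with earlier results of these data known. Each of the 10 passed the filter on low counts that left 14766 genes for testing. Read counts per gene were available for 3 libraries of Ddx20 knockout mice and 3 libraries of control littermates, each of about 1000 THY1-positive spermatogonia at day 4. The genotype is also shortened to cKO in the labels, which do not name the allele, the Cre driver or the cells in which Ddx20 was deleted, nor the genotype of the controls. Sorting on the surface protein THY1 enriches germ cells at the base of sperm production, and DDX20 (Gemin3) is an RNA helicase of the SMN complex. Whether libraries stem from separate animals is not in the labels, and the p-values therefore cover the spread of these samples alone, which can be technical.

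Cells enter mitosis when the kinase CDK1, bound to a B-type cyclin, loses inhibitory phosphates. WEE1 places such a phosphate, the CDC25 phosphatases remove it, and PLK1 and Aurora A (AURKA, held active on spindle microtubules by TPX2) promote entry and build the spindle. Exit follows when the APC/C, a ubiquitin ligase that uses the conjugating enzyme UBE2C, marks securin and cyclins for destruction, first with the activator CDC20 and then with CDH1, the product of Fzr1. Most of these transcripts are known to be made mainly in G2 and M phase, while Fzr1 and Wee1 are less tied to those phases.

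Total counts were 11656130, 11904762 and 12497967 in knockouts 1, 2 and 3, against 8428871, 11035515 and 11893287 in controls 1, 2 and 3. Ddx20 itself averaged 12.6 ± 2.35 CPM in knockouts and 47.0 ± 14.8 CPM in controls (SD, n = 3 each), where CPM is the read count over library size with TMM scaling between libraries. Knockouts 1 and 2 stood apart from the rest as a pair: over genes with at least 20 reads the counts differed by a mean chi-square of 1.78 between them, with 1 the value for pure counting noise, against 11.96 to 104 in the other 14 pairs of libraries. The pair was not alike in every gene: Rhox5, a Sertoli cell marker, had 168 reads in knockout 1 and 0 in knockout 2. It had 136 reads in knockout 3. Whether knockouts 1 and 2 are separate samples was not tested. They may not be, and values with both counted as 1 library are given beside the calls or the counts of calls. Mitochondrially encoded transcripts took 19.8% to 20.1% of reads in knockouts and 14.0% to 16.9% in controls.

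Of the 10 genes, 2 were called lower in the knockouts, Cdc25c and Wee1, and none was called higher at an edgeR quasi-likelihood adjusted p under 0.05 over all genes tested. Over all genes, 4.83% were called, 2.8% lower and 2.03% higher. Without any 1 of the knockout libraries, or with knockouts 1 and 2 as 1 library, edgeR called 0 of the 10. These fits called so few of all genes that they cannot tell the 10 from the rest. Without knockout 1, 2 and 3 edgeR called 0.0065%, 0.0195% and 0.00648% of all genes lower. With knockouts 1 and 2 as 1 library it called 0% of all genes lower and 0.00649% higher. With that pair as 1 library DESeq2 called 2 of the 10 lower, against 1.17% of all genes, and limma-voom called 1 of the 10 lower, against 1.29% of all genes. On all 6 libraries limma-voom called 6 of the 10 lower, Aurka, Tpx2, Cdc20 and Cdc25a added, against 11.3% of all genes. The log2 fold change, knockout over control, was below 0 in 9 of the 10, where 49.7% of all genes tested had a value below 0. Its median was −0.41 over the 10 genes and 0.01 over all genes tested. In the same 2 genes each knockout library lay below each control library, where 15.8% of all genes tested had such a gap in this direction and 32.6% in either. At an unadjusted p under 0.05, 4 of the 10 genes differed, all lower, against 24.1% of all genes in either direction and 12.8% lower. The 10 genes together took 0.0602% ± 0.00401 of all reads in knockouts and 0.0875% ± 0.0111 in controls (SD, n = 3 each). This share is without TMM scaling. With library size alone the median log2 fold change was −0.26 over all genes and −0.68 over the 10. Part of the gap in the share was thus common to genes in general. In bulk RNA, fewer cells in G2 and M phase and less of a transcript per cell cannot be told apart.

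**Figure D1:**
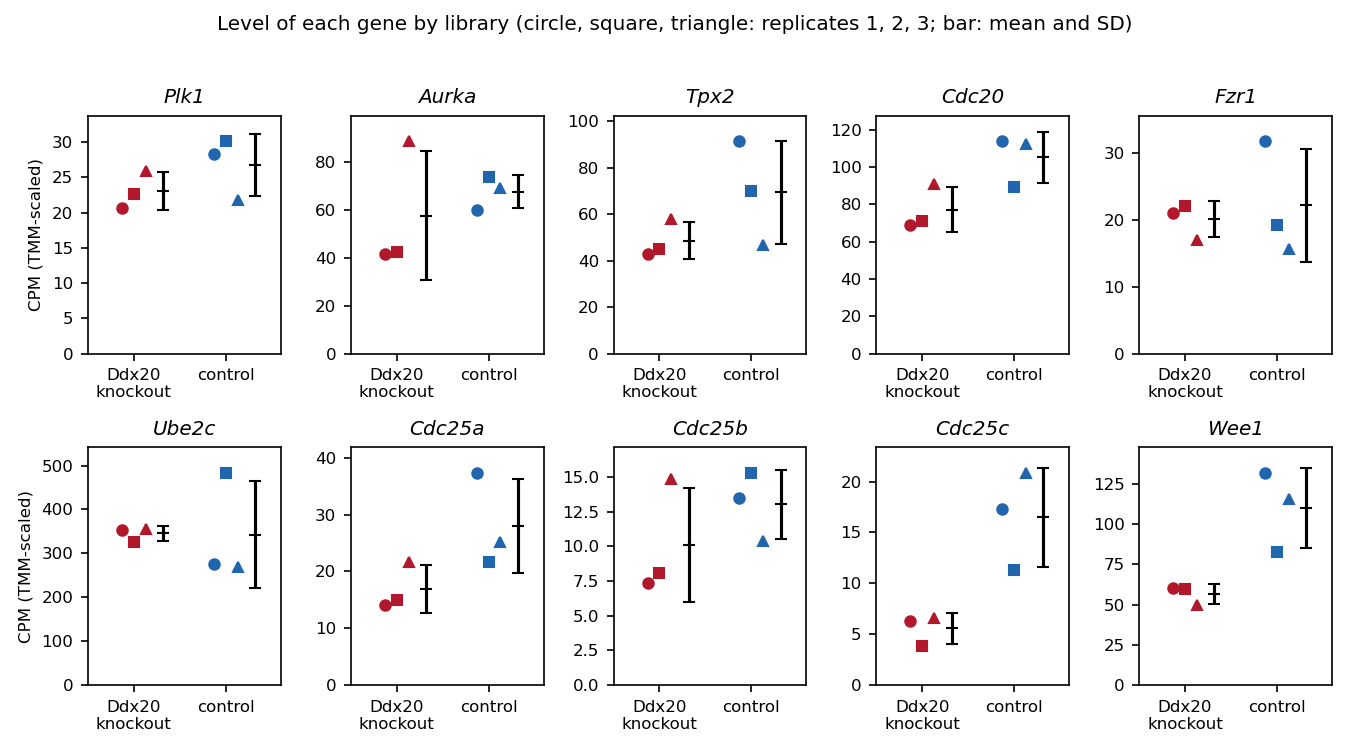
TMM-scaled CPM of each of the 10 genes (y axis from 0, own scale per panel) in the 3 Ddx20 knockout libraries (red) and the 3 control libraries (blue), with the mean and SD as a bar. For Cdc25c the knockouts lie between 3.81 and 6.57 CPM and the controls between 11.3 and 20.8 CPM, while for Ube2c the knockouts lie within the range of the controls.

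Wee1, whose kinase holds CDK1 inactive, had the smallest p of the 10. The gene, ENSMUSG00000031016, spans chr7:110122046-110143286 of mm10 on the plus strand. It stood at 60.3, 59.7 and 49.7 CPM in knockouts 1, 2 and 3, against 132, 83.0 and 116 CPM in controls 1, 2 and 3. The 3 knockouts were close to each other and all below the lowest control. The mean was 56.6 ± 5.97 CPM in knockouts and 110.2 ± 24.9 CPM in controls (SD, n = 3 each), so that the fitted level in knockouts was 51.3% of that in controls. The log2 fold change was −0.96 ± 0.19 (SE), with a 95% interval of −1.38 to −0.54 and an edgeR adjusted p of 0.0255. With knockouts 1 and 2 as 1 library it was −1.001, and the adjusted p was 0.126 by edgeR, 0.00973 by DESeq2 and 0.0313 by limma-voom. The edgeR adjusted p was 0.121, 0.127 and 0.0922 without knockout 1, 2 and 3.

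Cdc25c encodes a phosphatase that activates CDK1 at mitotic entry, and it had the largest fold change of the 10. Its gene (ENSMUSG00000044201) is on chromosome 18 at 34732993 to 34751533, on the minus strand. The reads were few: 68, 42 and 73 in knockouts 1, 2 and 3, against 181, 119 and 272 in controls 1, 2 and 3. As CPM these were 6.32, 3.81 and 6.57 in knockouts, against 17.3, 11.3 and 20.8 in controls. The groups did not overlap, and the highest knockout lay well below control 2, the lowest control. The log2 fold change was −1.57 ± 0.34 (SE), with a 95% interval of −2.32 to −0.81 and an edgeR adjusted p of 0.0320, a level 2.96-fold lower in the knockouts. With knockouts 1 and 2 as 1 library it was −1.50, and the adjusted p was 0.154 by edgeR, 0.0286 by DESeq2 and 0.0678 by limma-voom. Leaving out knockout 1, 2 or 3 gave edgeR adjusted p values of 0.137, 0.172 and 0.0814, and leaving out control 2 or 3 gave 0.0506 and 0.0643. Over 623 exon bases Cdc25c overlaps Gm3550 on the other strand, whose reads cannot be told apart from its own without strand. Gm3550 had 122 reads in the knockouts together and 114 in the controls, with a log2 fold change of 0.09 that did not pass (edgeR adjusted p 0.947).

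The other CDC25 genes did not pass. Cdc25a, whose product also acts on CDK2 at the start of S phase (chromosome 9, 109875579 to 109893895), had 14.0, 15.0 and 21.7 CPM in knockouts, against 37.3, 21.6 and 25.1 CPM in controls. Knockout 3 and control 2 were at nearly the same level, and the other knockouts lay below every control. Its log2 fold change was −0.73 with a 95% interval of −1.33 to −0.13 and an edgeR adjusted p of 0.134. Cdc25b, whose phosphatase starts CDK1 activation at the centrosome, had 7.34, 8.07 and 14.9 CPM in knockouts, against 13.5, 15.3 and 10.3 CPM in controls. Knockout 3 lay within the control range and knockouts 1 and 2 below it. Its log2 fold change of −0.37 had a 95% interval of −1.10 to 0.37 and an edgeR adjusted p of 0.544. Cdc25b overlaps 92 exon bases of Spef1 on the other strand, which had 92 reads in the knockouts together and 21 in the controls.

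**Figure D2:**
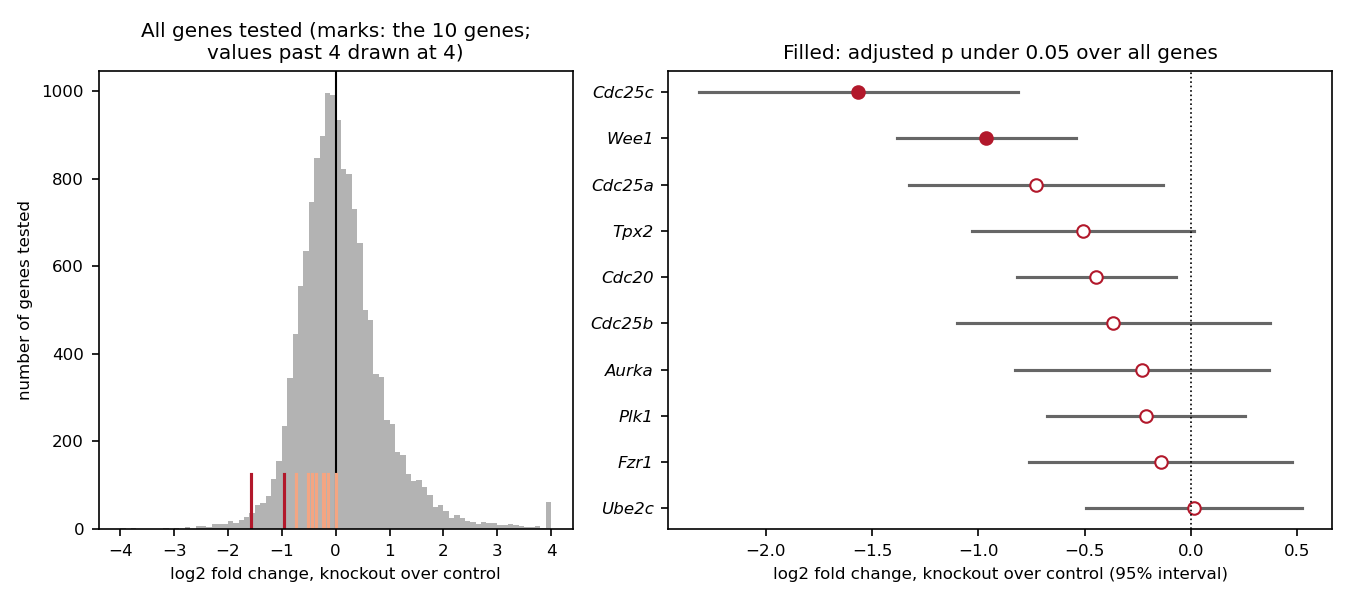
Left, histogram of log2 fold changes, knockout over control, over all 14766 genes tested (values past 4 drawn at 4), with short marks for the 10 genes and a line at the median of all genes. Right, the log2 fold change of each of the 10 genes with its 95% interval, filled where the edgeR adjusted p was under 0.05: Cdc25c at −1.57 and Wee1 at −0.96 are filled, and Ube2c sits at 0.01.

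The mitotic kinases PLK1 and AURKA are made from transcripts that did not pass the test. Plk1, the polo-like kinase gene (chromosome 7, 122159439 to 122169873), had 20.6, 22.6 and 25.9 CPM in knockouts, against 28.4, 30.1 and 21.8 CPM in controls. The groups overlapped, since control 3 lay below knockouts 2 and 3. Its log2 fold change of −0.21 had a 95% interval of −0.68 to 0.25 and an edgeR adjusted p of 0.583. Aurka (chromosome 2, 172356190 to 172370535) had 41.5, 42.5 and 88.5 CPM in knockouts, against 60.0, 73.5 and 68.9 CPM in controls. Knockout 3 was above every control and knockouts 1 and 2 below every control. Knockout 3 stood 2.11-fold above the mean of knockouts 1 and 2 in Aurka, and 1.93-fold above it in Cdc25b, while the other 8 genes gave ratios of 0.789 to 1.496. The log2 fold change of Aurka was −0.23 with a 95% interval of −0.83 to 0.37 (edgeR adjusted p 0.652), and it was −0.69 without knockout 3 and −0.04 without knockout 1.

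Tpx2, whose protein brings AURKA to the spindle and keeps it active, had 42.9, 45.1 and 57.8 CPM in knockouts, against 91.2, 69.8 and 46.8 CPM in controls. Control 3 lay among the knockouts, and the other controls lay above them all. The log2 fold change was −0.51 with a 95% interval of −1.03 to 0.01 and an edgeR adjusted p of 0.219. Over the 3 controls the highest level of Tpx2 was 1.95-fold the lowest, the second widest spread of the 10 after Fzr1 at 2.03-fold.

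Among the APC/C genes, Cdc20 had the lowest fold change and Ube2c the one nearest to 0, and none passed the test. Cdc20, the activator gene of early mitosis (chromosome 4, 118432901 to 118437352), had 69.1, 71.2 and 91.1 CPM in knockouts, against 114, 89.5 and 112 CPM in controls. Only knockout 3 reached the control range, just above control 2. Its log2 fold change was −0.45 with a 95% interval of −0.82 to −0.07, and its edgeR adjusted p of 0.142 did not pass. It overlaps 53 exon bases of Elovl1 on the other strand, which was higher in the knockouts by 0.92 on the log2 scale (edgeR adjusted p 0.0417). With knockouts 1 and 2 as 1 library the edgeR adjusted p of Elovl1 was 0.229, and its call was also lost without any 1 knockout and without control 1 or 2.

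Fzr1, the gene of the activator CDH1 that acts in late mitosis and G1 (chromosome 10, 81366222 to 81378516), had 21.01, 22.1 and 17.0 CPM in knockouts, against 31.7, 19.2 and 15.6 CPM in controls. All 3 knockouts lay inside the control range. The log2 fold change of −0.14 had a 95% interval of −0.76 to 0.48 (edgeR adjusted p 0.804), and it was 0.20 without control 1. Ube2c, the gene of the conjugating enzyme that starts ubiquitin chains for the APC/C (chromosome 2, 164769898 to 164778822), was the most abundant of the 10. It had 354, 327 and 355 CPM in knockouts, against 275, 483 and 268 CPM in controls. The knockouts were alike and lay between control 1 and control 2. Its log2 fold change was 0.01 with a 95% interval of −0.49 to 0.52 (edgeR adjusted p 0.981), and its sign turned in 6 of the 16 other settings, among them library size alone (−0.21).

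Promoter sequences are shown because G2 and M phase genes are known for a shared layout, the cell cycle homology region (CHR) near the start with CCAAT boxes upstream of it, bound by the MuvB complex and NF-Y. Windows of 250 bases before to 50 bases after the start, from RefSeq on GRCm38.p6, were searched for 7 of the 10 genes. Tpx2, Cdc25c and Wee1 were not searched, so neither gene called lower is covered. A CHR, searched as TTTGAA or TTCGAA on both strands, was found in 5 of the 7, against 19.2% of 32851 promoter windows of that length. CCAAT, on both strands, was found in all 7, against 37.4% of windows, and both motifs were found in 5 of the 7, against 7.52% of windows. The windows with both were those of Plk1, Aurka, Cdc20, Ube2c and Cdc25b. Fzr1 and Cdc25a had CCAAT without those CHR letters, and Cdc25a alone held an E2F-type site, searched as TTGGCGC or TTCCCGC (6.81% of windows). Capitals mark these motifs on either strand in the 5 windows below, each written 5′ to 3′ in the direction of its gene: Plk1 at chr7:122159185-122159484 on the plus strand, Cdc20 at chr4:118437294-118437593 on the minus strand, Ube2c at chr2:164769679-164769978 on the plus strand, Fzr1 at chr10:81378321-81378620 on the minus strand and Cdc25a at chr9:109875329-109875628 on the plus strand.
Plk1: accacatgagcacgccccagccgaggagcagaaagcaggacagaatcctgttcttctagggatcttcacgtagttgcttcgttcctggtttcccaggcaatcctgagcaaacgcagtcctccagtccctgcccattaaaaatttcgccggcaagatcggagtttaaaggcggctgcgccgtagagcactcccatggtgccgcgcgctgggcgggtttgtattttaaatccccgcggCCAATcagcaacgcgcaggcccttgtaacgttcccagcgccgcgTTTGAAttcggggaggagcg
Cdc20: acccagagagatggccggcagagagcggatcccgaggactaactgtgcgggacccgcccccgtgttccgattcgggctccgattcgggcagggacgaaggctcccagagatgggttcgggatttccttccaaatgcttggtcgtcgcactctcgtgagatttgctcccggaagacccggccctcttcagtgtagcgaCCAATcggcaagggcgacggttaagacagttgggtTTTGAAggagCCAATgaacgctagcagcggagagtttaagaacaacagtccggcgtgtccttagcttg
Ube2c: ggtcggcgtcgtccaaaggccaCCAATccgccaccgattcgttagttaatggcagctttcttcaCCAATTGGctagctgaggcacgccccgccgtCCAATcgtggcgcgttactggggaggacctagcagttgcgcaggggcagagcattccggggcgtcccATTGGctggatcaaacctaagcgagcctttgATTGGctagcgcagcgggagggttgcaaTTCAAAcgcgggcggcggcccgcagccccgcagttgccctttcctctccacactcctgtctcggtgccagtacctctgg
Fzr1: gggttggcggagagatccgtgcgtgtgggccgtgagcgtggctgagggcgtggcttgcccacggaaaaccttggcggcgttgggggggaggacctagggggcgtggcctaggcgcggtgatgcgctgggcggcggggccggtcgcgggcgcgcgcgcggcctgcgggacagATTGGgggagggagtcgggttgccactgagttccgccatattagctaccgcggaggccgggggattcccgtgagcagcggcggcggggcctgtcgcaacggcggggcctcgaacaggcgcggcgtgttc
Cdc25a: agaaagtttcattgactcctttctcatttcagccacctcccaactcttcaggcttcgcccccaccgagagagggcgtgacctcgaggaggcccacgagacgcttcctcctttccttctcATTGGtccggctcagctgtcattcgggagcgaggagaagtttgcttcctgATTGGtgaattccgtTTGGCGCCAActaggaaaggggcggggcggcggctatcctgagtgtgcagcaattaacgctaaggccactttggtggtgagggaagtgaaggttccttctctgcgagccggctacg
In Cdc20 the CHR ran from base −18 to −13 from the start, between CCAAT boxes at −53 to −49 and −8 to −4. In Ube2c it ran from −29 to −24 on the other strand, downstream of all 6 CCAAT matches, the first beginning at −228 and the last ending at −53, with a pair on opposite strands that overlaps between −186 and −179. In Plk1 it lay inside the transcript, at bases 31 to 36, after a CCAAT box at −14 to −10. The 5 genes with both motifs had log2 fold changes of −0.45 for Cdc20, −0.37 for Cdc25b, −0.23 for Aurka, −0.21 for Plk1 and 0.01 for Ube2c. None of these passed the test, but the genes that did, Cdc25c and Wee1, were not searched. The motifs were therefore not compared between called genes and the others.

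Levels were put in order per exon length, as TPM, computed from counts and the total length of each gene's annotated exons. This TPM is without TMM scaling, so it orders genes within a group and does not compare the groups. Ube2c, lower in knockouts by mean TPM, averaged 345 TMM-scaled CPM in knockouts and 342 in controls. In knockouts Ube2c came first at 236 ± 9.51 TPM, then Cdc20 at 73.3 ± 10.2, Aurka at 40.2 ± 17.95, Wee1 at 29.4 ± 3.59, Plk1 at 18.6 ± 1.85 and Tpx2 at 18.4 ± 2.7 TPM (SD, n = 3). Fzr1 at 7.95 ± 1.19 TPM, Cdc25b at 4.79 ± 1.87, Cdc25a at 3.73 ± 0.852 and Cdc25c at 2.01 ± 0.534 TPM followed (SD, n = 3). In controls the TPM levels were 301 ± 57.0 for Ube2c, 136 ± 40.0 for Cdc20, 78.8 ± 31.0 for Wee1, 62.6 ± 5.71 for Aurka, 35.9 ± 16.8 for Tpx2 and 28.8 ± 6.75 for Plk1 (SD, n = 3). The 3 CDC25 genes were nearly level in controls, with 8.60 ± 4.09 TPM for Cdc25a, 8.24 ± 1.82 for Cdc25b and 8.15 ± 3.21 for Cdc25c (SD, n = 3), and Fzr1 stood at 12.2 ± 6.74 TPM. In knockouts the ranges over libraries overlapped between Aurka and Wee1, Plk1 and Tpx2, Fzr1 and Cdc25b, and Cdc25b and Cdc25a, so the order of these neighbours is not larger than their spread. In controls the same held between Cdc20 and Wee1, Wee1 and Aurka, Tpx2 and Plk1, and each neighbouring pair from Fzr1 to Cdc25c. The highest knockout level of Cdc25c lay below the lowest knockout level of Cdc25a.

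Ratios of reads within a library do not depend on scaling between libraries. The ratio of Cdc20 to Fzr1 was 3.28, 3.21 and 5.34 in knockouts, against 3.58, 4.66 and 7.15 in controls, so the groups overlapped (exact two-sided permutation p = 0.5). The sum of the 3 CDC25 genes over Wee1 was 0.460, 0.450 and 0.868 in knockouts, against 0.516, 0.581 and 0.487 in controls (exact permutation p = 1). Knockout 3 was above every control in that ratio and the other knockouts below every control. Aurka over Tpx2 was 0.965, 0.944 and 1.53 in knockouts, against 0.658, 1.05 and 1.47 in controls (exact permutation p = 0.9). A pair of further ratios was chosen after the values were seen. Cdc25c over Cdc25a and Cdc25b together was 0.297, 0.167 and 0.181 in knockouts, against 0.341, 0.307 and 0.588 in controls, a gap between groups that gave an exact permutation p of 0.1, the smallest that 3 against 3 allows. Cdc25c over Wee1 was 0.105, 0.0645 and 0.133 in knockouts, against 0.131, 0.137 and 0.180 in controls, so knockout 3 reached the lowest control (exact permutation p = 0.2). Over these 5 ratios the lowest Benjamini-Hochberg adjusted permutation p was 0.5.

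**Figure D3:**
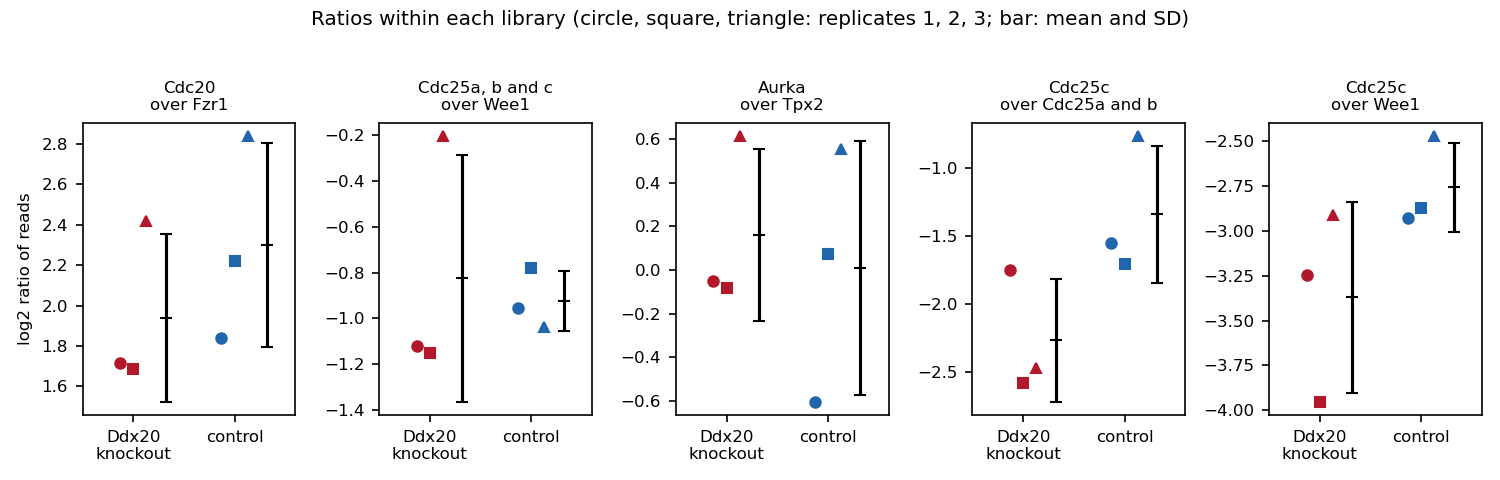
Log2 of the ratio of reads between genes within each library (y axis, own scale per panel, 0.5 added to each count), for the 3 Ddx20 knockout libraries (red) and the 3 control libraries (blue), with mean and SD as a bar. The groups overlap in 4 panels, and for Cdc25c over Cdc25a and Cdc25b each knockout lies below each control.

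The partners of these genes were grouped into 8 lists by role, drawn up with earlier results of these data known, so their counts are a description and no independent support. Of 89 listed genes 88 were tested, 15 were called lower and none higher by edgeR, which is 17% lower against 2.8% of all genes. The lists' median log2 fold changes ran from −0.54 to 0.03. With knockouts 1 and 2 as 1 library, or without any 1 of the knockouts, none of the 88 was called lower by edgeR, and without control 2 there was 1 such call. In the fits with the pair as 1 library or without a knockout, edgeR called 0 to 3 of all genes lower. That loss is therefore not particular to the 88. The other mitotic kinases held 4 lower calls among 15. Among them log2 fold changes were −0.90 for Ttk and −0.65 for Bub1, both checkpoint kinase genes, and −0.79 for Bub1b, whose product BUBR1 restrains CDC20. The fourth was Aurkb, the kinase gene of the chromosomal passenger complex, at −0.63. Pkmyt1, which encodes the other CDK1 inhibitory kinase beside WEE1, stood at 5.53 ± 2.92 CPM in knockouts and 4.31 ± 1.71 CPM in controls (SD, n = 3 each), with a log2 fold change of 0.36 that did not pass (edgeR adjusted p 0.730).

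Among 13 cofactors and spindle partners of PLK1 and AURKA, 3 were called lower and all 13 had a log2 fold change below 0 (median −0.44). Incenp, the scaffold gene of the passenger complex, fell to 33.8 ± 6.79 CPM in knockouts, against 77.3 ± 18.05 CPM in controls (SD, n = 3 each). Hmmr and Ckap5 were called too, with log2 fold changes of −1.04 for Hmmr, a spindle protein gene, and −0.83 for Ckap5, a microtubule polymerase gene. Bora, the gene of the cofactor through which AURKA activates PLK1, had a log2 fold change of −0.67 and did not pass (edgeR adjusted p 0.0876).

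The list of 10 checkpoint genes upstream of CDC25 and WEE1 holds kinases, ligases, their partners and a deubiquitinase. All 10 had log2 fold changes below 0 (median −0.46, highest −0.006). Of the 10, 3 were called lower, none of them a kinase or ligase gene. These were Topbp1, Clspn and Usp7, with log2 fold changes of −0.63 for Topbp1, an activator gene of the kinase ATR, −0.63 for Clspn, whose product claspin links ATR to CHK1, and −0.69 for the deubiquitinase gene Usp7. Chek1, the kinase gene whose product inhibits CDC25, had 62.9 ± 1.33 CPM in knockouts and 85.6 ± 16.1 CPM in controls (SD, n = 3 each), with an edgeR adjusted p of 0.143. Of 6 cyclin, CDK and CKS genes Ccnb2 was called with a log2 fold change of −0.71, while Cdk1 stood at 113 ± 28.2 CPM in knockouts and 110.3 ± 15.7 CPM in controls (SD, n = 3 each).

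Of 14 APC/C subunit genes Anapc1, the gene of the largest scaffold subunit, was called, with 98.7 ± 6.29 CPM in knockouts and 159 ± 19.7 CPM in controls (SD, n = 3 each), a log2 fold change of −0.69. The list median was −0.12. Of 8 tested E2, inhibitor and deubiquitinase genes Usp37 was called with a log2 fold change of −0.71, and the list median was 0.03. Of 11 mitotic exit phosphatase genes Ppp1cc was called at −0.74, and of 11 APC/C substrates Anln, a contractile ring gene, at −0.92. The securin gene Pttg1 stood at 102 ± 9.51 CPM in knockouts and 94.98 ± 10.5 CPM in controls (SD, n = 3 each), with a log2 fold change of 0.10 (edgeR adjusted p 0.748). EdgeR adjusted p values of the 15 called genes ran from 0.0146 to 0.0485.

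**Figure D4:**
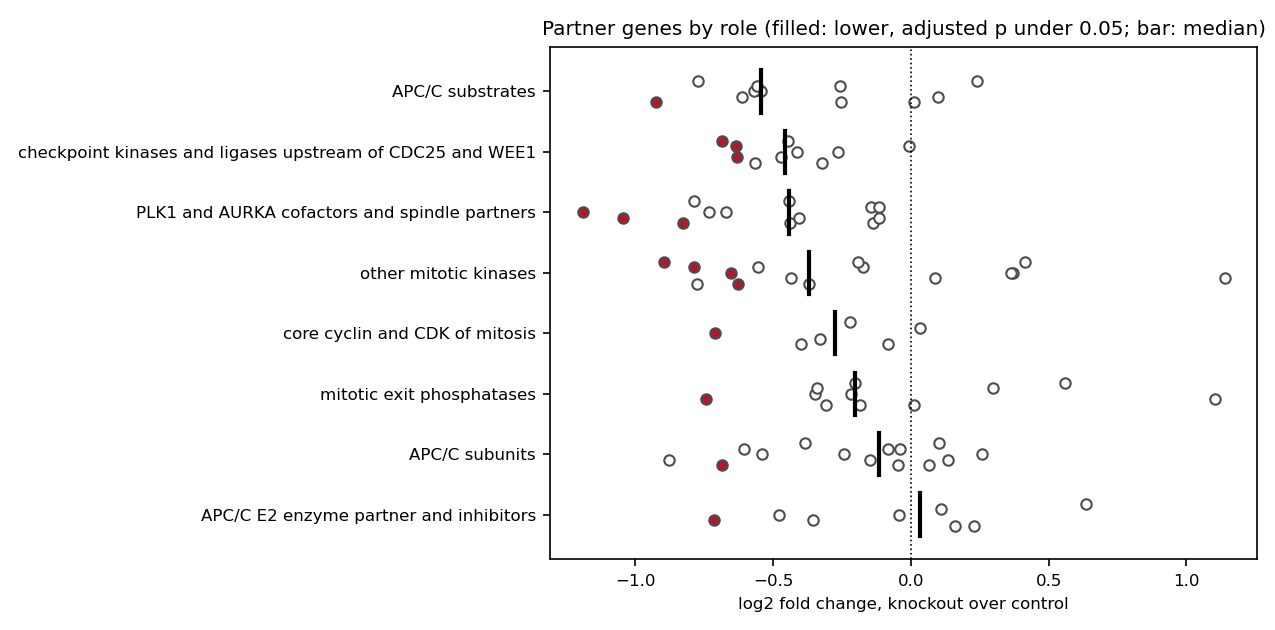
Log2 fold change, knockout over control (x axis), of the 88 tested partner genes, each a circle, in 8 lists ordered by their median (black bar). Filled circles are the 15 genes called lower by edgeR, 4 of them among the other mitotic kinases, and no gene was called higher.

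Genes with the most similar pattern to Plk1 were found by Pearson's r of log2 CPM over the 6 libraries, which share their 2 genotypes and the close pair. The 3 most alike among other genes of at least 10 CPM were Abl2, a tyrosine kinase gene (r = 0.993), Malt1 (r = 0.983) and Nphp4 (r = 0.983). Among the 10 genes themselves Tpx2 and Cdc25b were closest to Plk1 (r = 0.897 and 0.892), and Wee1, Cdc25c and Fzr1 were the least alike (r = 0.277, 0.305 and 0.322). With so few libraries these are descriptions of the pattern.

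The labelled cell type was checked against markers. The 9 germ cell markers together summed to 4797 to 5092 CPM, here without TMM scaling, in knockouts and 4592 to 4845 in controls, and none was at 0 in a group. Of the 9, 1 was called higher, Mael, with a log2 fold change of 0.79 (edgeR adjusted p 0.0475), and 1 lower, Gfra1, a receptor gene of undifferentiated spermatogonia, at −0.69 (edgeR adjusted p 0.0395). Zbtb16 at −1.08 and Sall4 at −0.46, further genes of undifferentiated spermatogonia, did not pass (edgeR adjusted p 0.0655 and 0.144). The pan-germ cell genes did not pass either, Ddx4 with a log2 fold change of 0.35 (edgeR adjusted p 0.233) and Dazl with one of 0.18 (edgeR adjusted p 0.645). The 9 Sertoli cell markers summed to 136 to 164 CPM in knockouts and 74.6 to 92.4 in controls, with 3 called higher. The Sertoli markers tested but not called had log2 fold changes from −0.68 for Sox9 to 0.47 for Wt1. The 7 peritubular myoid markers summed to 303 to 423 in knockouts and 141 to 192 in controls, with 3 called higher. The 7 macrophage markers summed to 1692 to 2366 in knockouts and 819 to 1559 in controls, with none called. Lyz2 alone held 1040 to 1569 CPM in knockouts and 378 to 864 CPM in controls, with a log2 fold change of 1.07. The other macrophage markers had log2 fold changes from −0.09 for Csf1r to 0.68 for C1qa. Since few genes lead such sums, they do not measure how many of these cells were present. The 7 T lymphocyte markers summed to 67.1 to 93.5 in knockouts and 53.6 to 84.4 in controls, with 2 called higher. The T lymphocyte markers not called had log2 fold changes from −0.74 for Cd8a to 1.26 for Cd3d. The 6 Leydig cell markers summed to 41.8 to 55.4 in knockouts and 28.8 to 58.1 in controls, and the 6 endothelial markers to 41.6 to 56.1 in knockouts and 34.8 to 45.3 in controls. None of these markers was at 0 in all libraries of a group, but some were at 0 in a single library. Among those was the Sertoli marker Rhox5, at 0 in knockout 2, against 168 and 136 reads in knockouts 1 and 3. Knockout 2 also had the lowest Sertoli sum of the knockouts. With knockouts 1 and 2 as 1 library edgeR called none of the 10 markers called on 6 libraries, their adjusted p ranging from 0.0541 to 0.223. In that arrangement both DESeq2 and limma-voom called 5 of the 10: Mael, 2 Sertoli and 2 myoid markers, and no T lymphocyte marker. DESeq2 gave no adjusted p for Cldn11 and Actg2. Without knockout 1, 2 and 3 edgeR called 1, 2 and 0 of the 10. The part of these other cells in the lower Wee1 and Cdc25c levels was not tested.

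**Figure D5:**
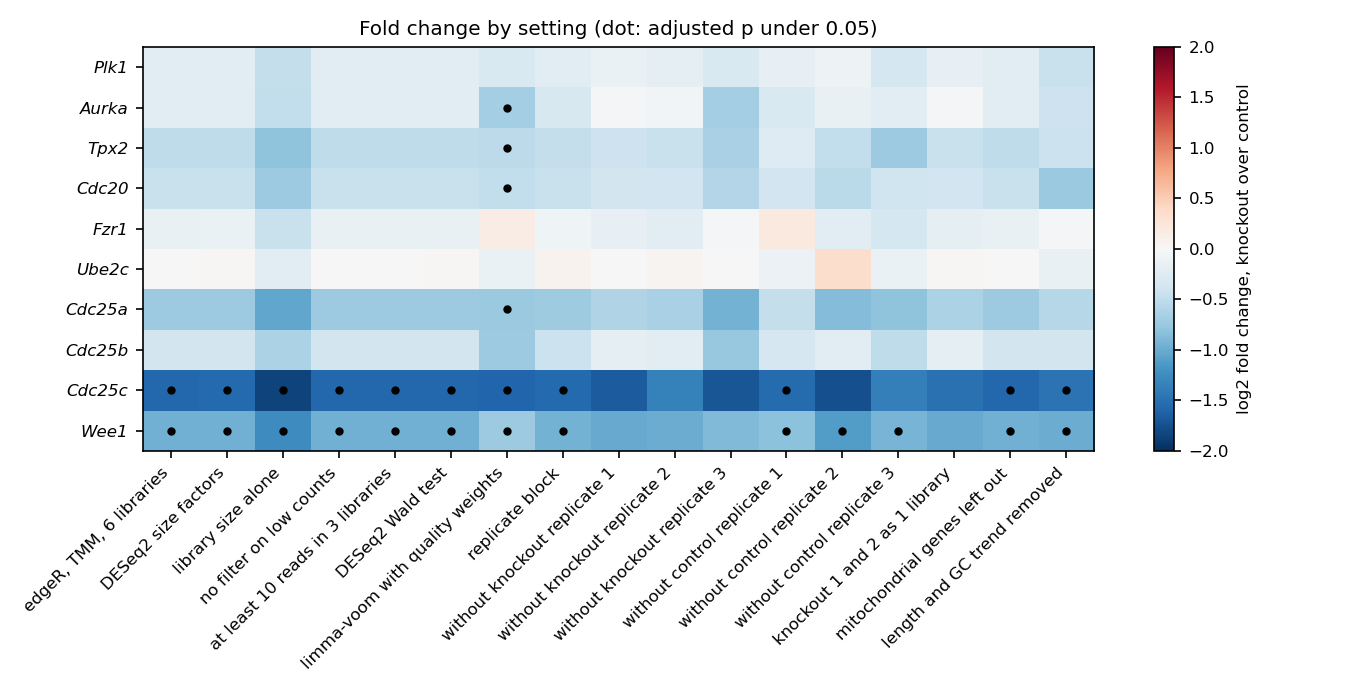
Log2 fold change, knockout over control (colour), of the 10 genes (rows) under edgeR with TMM scaling on 6 libraries and 16 other settings (columns), with a dot where the adjusted p was under 0.05. Cdc25c and Wee1 stay below 0 in every column and have dots in 10 and 12 of the 16 others, and no dot stands in the columns without a knockout library or with knockouts 1 and 2 as 1 library.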

How the data were processed

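Per the labels' protocols, RNA of about 1000 cells per library was reverse transcribed from anchored oligo-dT by SMART-seq2, and both fragment ends were read for 150 bp. The deposited table holds raw read counts, 1 row per Ensembl identifier. The submitters' processing notes name edgeR, DESeq2, StringTie 2.1.7, STAR 2.7.5c, Trimmomatic 0.39 and the build mm10, without roles. Not given in the sources used here are the counter, annotation, strand setting and filter. No molecular identifiers were added, so PCR copies can be counted more than once, and the method keeps no strand. A further 2 columns, the authors' sum and mean, were not used.

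Symbols, positions and exon lengths came from GENCODE M21, which matched 22562 of 22579 identifiers. Differences were tested with edgeR 4.0.16 in R 4.3.3 (quasi-likelihood F test, robust, TMM, filterByExpr, genotype as the sole term, two-sided), with Benjamini-Hochberg adjustment over all genes tested and a threshold of 0.05. A standard error is the log2 fold change divided by √F. TPM was computed from counts and total exon length, without TMM scaling. DESeq2 1.42.0 and limma 3.58.1 (voom with quality weights) were alternatives. The fits were tested on simulated data. Total counts ranged from 8428871 to 12497967, and intervals do not cover variation between preparations. The members and lists were chosen with earlier results of these data known. The text names all 10 members and up to 3 called genes of each partner list with the smallest p. It also names the 3 genes most like Plk1 and the markers Ddx4 and Dazl. Aurkb, Pkmyt1, Bora, Chek1, Cdk1, Pttg1, Mael, Gfra1, Zbtb16, Sall4, Cldn11 and Actg2 were chosen after their values were seen. So were Lyz2, Csf1r, C1qa, Sox9, Wt1, Rhox5, Cd8a and Cd3d. Alternatives were other tools, scalings and filters, fits without a library, and a replicate block. The marker calls with fewer libraries were a check chosen after seeing the data.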

Additional observations from a re-analysis of the deposited data

How the results depend on the processing

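Of 160 values (10 genes under 16 settings) 138 kept their direction and side of the threshold. Cdc25c and Wee1 kept their direction in all 16, from −1.85 to −1.35 and from −1.25 to −0.73. The number of the 10 genes called lower was 2 by edgeR, 6 by limma-voom (Aurka, Tpx2, Cdc20 and Cdc25a added), and 2 in each of the DESeq2 test, DESeq2 size factors, library size alone, both filter alternatives, mitochondrial genes left out, and the length and GC trend removed. With knockouts 1 and 2 as 1 library it was 0 by edgeR, 2 by DESeq2 and 1 by limma-voom (Wee1), and by edgeR 0 to 2 without a library each (0 without any 1 knockout, and Wee1 alone without control 2 or 3); none was called higher in any setting. Over all genes, 413 lower and 300 higher calls became 1152 lower with library size alone, 796 and 806 by DESeq2, 1675 and 1090 by limma-voom, 0 and 1 by edgeR with the pair as 1 library (2150 at an unadjusted p under 0.05; 466 by DESeq2 and 408 by limma-voom), and 1 to 468 and 2 to 414 without a library each. Partner genes called lower were 15 by edgeR, 26 with library size alone, 31 by limma-voom, 0 by edgeR with the pair as 1 library and 0 to 20 without a library each; 0 to 1 were called higher. With library size alone the median of all genes stood at −0.26 (log2) and that of the 10 genes at −0.68. The sign turned for Fzr1 by limma-voom (0.15) and without control 1 (0.20), and for Ube2c with library size alone (−0.21), by limma-voom (−0.13), with the length and GC trend removed (−0.14), without knockout 3 (−0.01), without control 1 (−0.12) and without control 3 (−0.14). The ratio of the CDC25 sum to Wee1 had a log2 difference of 0.10, and of −0.21 to 0.26 without a library each; that of Aurka to Tpx2 was 0.15, and −0.16 to 0.42. Without a library each, Fzr1 ran from −0.34 to 0.20 and Ube2c from −0.14 to 0.36. The cause of these changes was not tested.

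The replicate numbers do not pair the libraries: same-numbered knockouts and controls correlated at 0.000853, 0.0116 and 0.0165 in their deviations from the group means. With the replicate block edgeR called 371 genes lower and 312 higher, Wee1 (adjusted p 0.0236) and Cdc25c (0.0242) among them. Depth limits Cdc25c and Cdc25b most, with as few as 42 and 79 reads in a library.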
